A study of Rattus norvegicus with 21 samples.

Results

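Retinas of Sprague Dawley rats kept under blue light at level 1000 (Blue1000) were compared with control retinas by bulk RNA sequencing, using 3 libraries of each group out of 21 libraries in 7 groups. Both groups were chosen by their treatment label, and all genes of the table were compared. By its title the series is about dental lights and how they bear on the barrier between blood and retina. Retinas were taken after 6 months of light exposure, and an age of 8 months stands in a label field headed cell type. The other groups were blue light at level 200 (Blue200) and halogen (Hal) or LED light at levels 200 and 1000; the design text writes white light where the labels write LED. No label gives the unit of a light level, the light that the control animals received, or whether each of the 3 samples of a group was a different animal. The p-values therefore cover only sample-to-sample spread, some of which may be technical.

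In rod photoreceptors, captured light activates the G protein transducin and a phosphodiesterase, and closure of cyclic nucleotide-gated channels then lowers transmitter release. Rods far outnumber cones in the rat retina, and albino rats such as Sprague Dawley lack the pigment that screens the retina from light. Müller glia, microglia, the pigment epithelium and the vessel endothelium surround and supply these neurons, and the pigment epithelium and endothelium form the outer and inner blood-retinal barrier.

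The 6 libraries held 30404774 to 33102674 counts, and 16006 of 19099 genes passed the filter on low counts. Levels are counts scaled to TMM library totals (CPM), and a log2 fold change is Blue1000 minus control with its standard error (SE). A gene was called with an adjusted p under 0.05 (edgeR quasi-likelihood test with Benjamini-Hochberg adjustment over all genes tested). In all 8686 genes were called (54.3%), 4387 higher in Blue1000 (27.4%) and 4299 lower (26.9%), and 2389 differed by over 2-fold (14.9%); 58.9% had an unadjusted p under 0.05. Every Blue1000 library lay above every control library for 32.0% of genes and below for 30.7%, so 62.7% of genes showed no overlap. The split of calls rested on the scaling: 50.5% of calls were higher with TMM, 70.0% with summed counts and 12.2% when libraries were scaled to the summed counts of the bipolar cell list. The median log2 fold change over all genes was 0.04, 0.26 and -0.51 under these scalings. Under the bipolar cell scaling 7.05% of genes were called higher and 50.9% lower, so counts of list members under both scalings are given below. Each count under that scaling is to be set beside these shares, and each TMM count beside 27.4% and 26.9%. In bulk tissue, fewer cells of a type and less RNA per cell cannot be told apart.

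Libraries within each group differed in ways that touch the results. Blue1000 replicate 3 lay between replicates 1 and 2 for 143 of the 143 genes in which those mates differed by over 2-fold, at a median position of 0.46 of the way from replicate 1 to replicate 2. For the control replicates the share of such genes that lay between their mates was 46.9 to 68.0%. Hal1000 replicate 3 and LED1000 replicate 2 also lay between their mates, for 99.1% and 98.6% of such genes. Whether these libraries were independent of their mates was not tested. Every SE and p-value here takes them as independent, and would be too small if they were not. Without Blue1000 replicate 3, 7800 genes were called, 7715 of them shared with the full comparison. Lens genes took 0.493% of counts in control replicate 3, 0.228% in Blue1000 replicate 1 and 0.123% in Blue1000 replicate 3, against 0.00442 to 0.00926% in the other 3 libraries. Muscle and pigment genes were highest in Blue1000 replicate 2, then replicate 3. Without Blue1000 replicates 2 and 3 together, 5720 genes were called. That setting leaves Blue1000 with 1 library, which is assumed to vary like the other groups, so a call lost under it may reflect the smaller number of libraries, and list medians are given beside it. Defining genes of bipolar, amacrine and ganglion cells and of Müller glia (Grik1, Gad2, Pou4f1 and Kcnj10) were present in all 6 libraries.

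Transcripts of the rod phototransduction cascade were far lower in Blue1000 than in control. All 10 genes of the activation list fell, as did all 13 tested genes of the shutoff and calcium feedback list, all 20 of the outer segment and interphotoreceptor matrix list, and 13 of 14 photoreceptor transcription factors, where 26.9% of all genes tested were lower. The medians of the 4 lists were -8.15, -5.10, -5.62 and -3.91 on the log2 scale, beside 0.04 over all genes. These counts were the same without Blue1000 replicate 3, without Blue1000 replicate 2, without control replicate 3, and without Blue1000 replicates 2 and 3 together. The 4 lists together took 10.33%, 9.65% and 9.92% of all counts in control replicates 1 to 3, and 0.341%, 0.276% and 0.311% in Blue1000 replicates 1 to 3.

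To show sequence shared within these lists, the 250 bases before the annotated start of each gene (RefSeq, build GRCr8) were searched for TAATCC and its reverse complement GGATTA, the core that the photoreceptor homeobox factor Crx binds. Of 58 genes on the 4 lists, 45 matched a RefSeq window, and 11 of the 45 (24.4%) held the motif, against 6.34% of all 33469 windows and 5.56% of the 12910 tested genes with a window. TGCTGA and its reverse complement TCAGCA, the core half-site of the Maf family to which Nrl belongs, was in 10 of the 45 (22.2%), against 15.14% of all windows and 14.45% of tested genes with a window. Both strands were searched, overlap with other motifs was not assessed, and a match is a description, not a binding site. The windows of 4 genes are printed 5′ to 3′ on the gene's strand, with each TAATCC or GGATTA in capitals. They were chosen after their values were seen: 3 genes lower by over 6 on the log2 scale from different lists, and Crx itself.
Cngb1: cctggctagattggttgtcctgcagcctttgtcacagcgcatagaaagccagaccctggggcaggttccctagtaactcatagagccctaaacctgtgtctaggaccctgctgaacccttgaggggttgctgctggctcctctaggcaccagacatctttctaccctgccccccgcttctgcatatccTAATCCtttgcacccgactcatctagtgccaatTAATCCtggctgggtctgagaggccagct
Gucy2f: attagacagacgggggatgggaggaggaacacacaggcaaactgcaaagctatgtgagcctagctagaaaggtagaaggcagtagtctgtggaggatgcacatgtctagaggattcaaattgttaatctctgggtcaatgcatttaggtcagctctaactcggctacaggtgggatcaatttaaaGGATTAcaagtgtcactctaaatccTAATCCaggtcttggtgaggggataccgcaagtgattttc
Prph2: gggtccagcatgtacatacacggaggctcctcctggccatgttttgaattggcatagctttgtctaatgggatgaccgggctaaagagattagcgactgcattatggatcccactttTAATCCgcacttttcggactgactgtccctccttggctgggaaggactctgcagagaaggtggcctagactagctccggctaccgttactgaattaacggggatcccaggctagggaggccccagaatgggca
Crx: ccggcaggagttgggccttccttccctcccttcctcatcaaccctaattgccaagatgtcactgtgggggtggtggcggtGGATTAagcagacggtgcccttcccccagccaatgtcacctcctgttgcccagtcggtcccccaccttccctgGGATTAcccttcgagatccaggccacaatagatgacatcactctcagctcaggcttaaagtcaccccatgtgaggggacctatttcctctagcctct
The Cngb1 window (chr19:9732396-9732645, plus strand) held TAATCC with its first base at -62 and at -29 relative to the start. Gucy2f (chrX:110605018-110605267, minus strand) held GGATTA at -65 and TAATCC at -40. Prph2 (chr9:21579075-21579324, minus strand) held TAATCC at -133, and Crx (chr1:85681853-85682102, minus strand) held GGATTA at -170 and -97.

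Gnat1, the rod transducin alpha subunit, was at 13547, 10433 and 11782 CPM in control against 10.7, 2.19 and 8.29 CPM in Blue1000. The groups were far apart, and Blue1000 replicate 2 was the lowest library (log2 fold change -10.72, SE 1.3, adjusted p = 1.0e-05, edgeR). Per length, it stood at 4834 ± 602 FPKM (SD, n = 3) in control and at 3.36 ± 2.07 FPKM in Blue1000.

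Effector and channel genes fell as well. Pde6b, a catalytic subunit of the rod phosphodiesterase, was at 2459, 2368 and 2103 CPM in control and at 5.40, 1.08 and 2.33 CPM in Blue1000 (-9.62, SE 1.1, adjusted p = 2.7e-06). Cnga1 and Cngb1, the subunits of the rod cyclic nucleotide-gated channel, had log2 fold changes of -9.21 and -8.82, and Slc24a1, the exchanger that removes calcium from rods, of -7.49. Blue1000 replicate 2 was the lowest of its group for each of Gnat1, Pde6b, Cnga1, Cngb1 and Slc24a1. Gnb1, a beta subunit of transducin that many cell types use, fell least of the list, from 5990, 5277 and 5672 CPM to 468, 455 and 460 CPM (-3.62, SE 0.14, adjusted p = 2.3e-12).

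Genes that end the light response fell as well. Sag, the arrestin of rods, was at 8733, 8509 and 5847 CPM in control and at 68.3, 23.7 and 43.9 CPM in Blue1000 (-7.41, SE 0.55, adjusted p = 3.3e-08). Grk1, a receptor kinase of photoreceptors, had a log2 fold change of -5.77, Rcvrn (recoverin, its calcium sensor) of -5.10, and Pdc (phosducin, which binds transducin beta and gamma subunits) of -8.31. Gucy2f, a guanylate cyclase of the outer segment, was at 101, 113 and 74.99 CPM in control and at 0.732, 0.150 and 0.246 CPM in Blue1000, a gene chosen for its promoter window after its values were seen (-7.99). No control library came near a Blue1000 library for these genes.

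Structural genes of the outer segment spanned a wide range of falls. Prph2, which shapes the rims of the discs, was at 4289, 3793 and 4000 CPM in control and at 51.4, 25.2 and 41.5 CPM in Blue1000 (-6.68, SE 0.45, adjusted p = 1.1e-08). Its partner Rom1 was at -4.13, Abca4 (a retinoid transporter of the discs) at -3.76 and Rbp3 (the retinoid carrier of the interphotoreceptor matrix) at -3.89. The smallest fall named here was that of Pde6d, a carrier of prenylated proteins present in many tissues, from 75.2, 70.0 and 79.9 CPM to 38.2, 36.3 and 39.3 CPM, a gene chosen after its values were seen (-0.98, SE 0.12, adjusted p = 8.7e-07).

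Among transcription factors, those of the rod fate fell most. Nrl, which commits precursors to rods, was at 948, 786 and 768 CPM in control and at 1.74, 0.360 and 1.32 CPM in Blue1000 (-9.51, SE 1.1, adjusted p = 4.6e-06). Nr2e3, the nuclear receptor that acts with Nrl, had 605, 735 and 594 CPM in control, 2.32 CPM in Blue1000 replicate 1, a count of 0 in replicate 2 and 0.890 CPM in replicate 3 (-9.23, adjusted p = 1.1e-05). Esrrb, an orphan receptor of rods, was at -6.76. Crx, which rods and cones share, kept more of its level, at 71.3, 50.9 and 56.3 CPM against 542, 549 and 506 CPM (-3.16, SE 0.16, adjusted p = 4.4e-11). Otx2 and Neurod1, which bipolar or amacrine cells also express, fell by 1.72 and 2.01 on the log2 scale. Rorb was the member of the list that was not called.

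**Figure D1:**
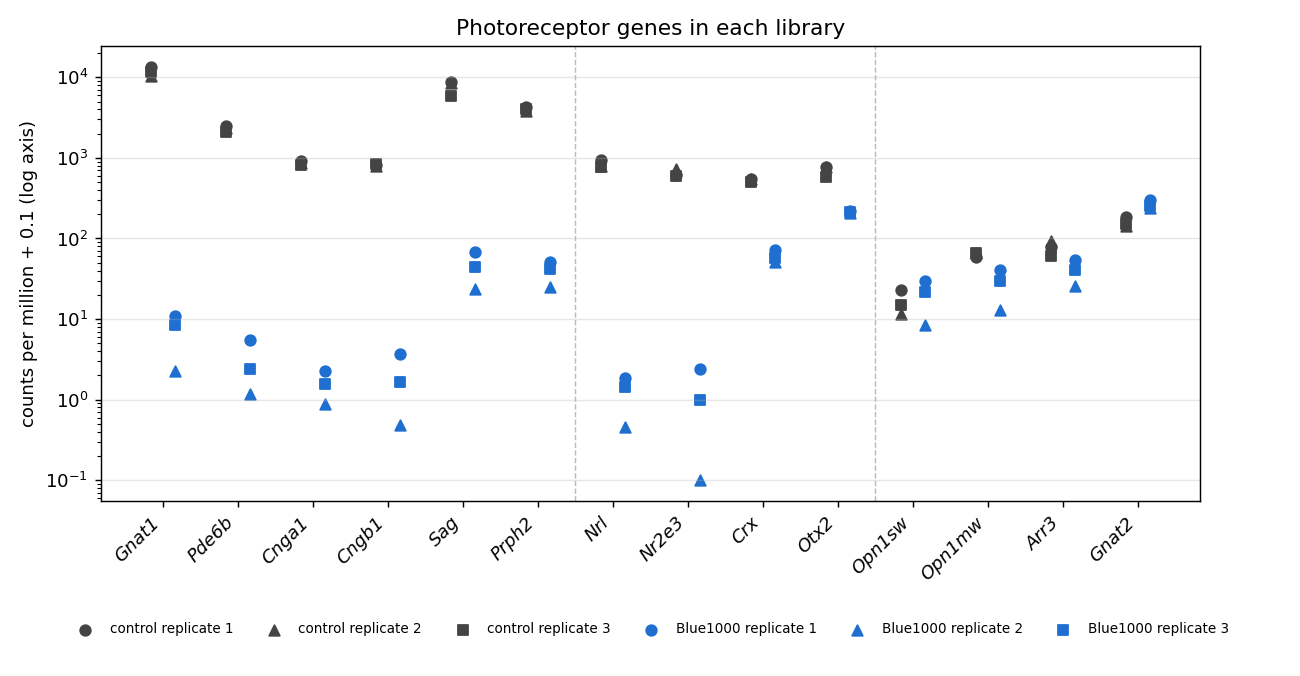
Levels in CPM plus 0.1 (log axis) of rod genes (left), photoreceptor transcription factors (middle) and cone genes (right) in each of the 3 control and 3 Blue1000 libraries, 1 point per library. Rod genes lie far apart between the groups, with 13547 against 10.7 CPM for Gnat1 in replicate 1, while the cone opsin Opn1sw overlaps between them.

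Cone genes did not move as the rod genes did. Of 14 tested, 4 were higher, 5 were lower and 5 were not called (27.4% and 26.9% of all genes), with a median of -0.36. Scaled to the bipolar cell list 0 were higher and 8 lower, with a median of -0.92. Without Blue1000 replicates 2 and 3 the counts were 4 and 2, and the median was 0.21. The cone list took 0.0900%, 0.0894% and 0.0834% of counts in control and 0.116%, 0.0867% and 0.0996% in Blue1000, ranges that overlapped.

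The short-wavelength opsin Opn1sw was at 22.6, 11.5 and 14.9 CPM in control and at 29.4, 8.34 and 21.5 CPM in Blue1000, with overlapping groups (0.27, SE 0.39, adjusted p = 0.59). The middle-wavelength opsin Opn1mw was at 58.8, 65.4 and 65.6 CPM in control and at 40.2, 12.7 and 29.3 CPM in Blue1000, where replicate 2 was lowest (-1.21, SE 0.32, adjusted p = 0.0045). Cone arrestin Arr3 followed the same order, at 54.6, 25.3 and 40.2 CPM against 79.3, 93.0 and 61.3 CPM in control (-0.96, SE 0.27, adjusted p = 0.006). Without Blue1000 replicates 2 and 3 neither kept its call (adjusted p = 0.12 for Opn1mw and 0.23 for Arr3), and Opn1mw also lost it with only the compared groups in the fit (adjusted p = 0.062). Gnat2, the cone transducin alpha subunit, rose from 184, 145 and 150 CPM to 296, 236 and 251 CPM with TMM (0.71, SE 0.15, adjusted p = 0.00044) and was not called with the bipolar cell scaling (0.16, adjusted p = 0.33). Thrb, the thyroid hormone receptor of middle-wavelength cones, fell from 148, 134 and 120 CPM to 52.4, 42.7 and 47.5 CPM (-1.49, SE 0.18, adjusted p = 1.2e-06), with no overlap.

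Genes of the photoreceptor ribbon synapse were lower for 13 of 16 and higher for 1, with a median of -1.30, and 13 and 0 under the bipolar cell scaling. Cabp4, the calcium sensor of the synaptic calcium channel, fell from 650, 625 and 460 CPM to 9.30, 2.04 and 4.85 CPM (-6.74, SE 0.51, adjusted p = 4.0e-08). The channel subunit Cacna1f was at -1.88, Cplx4 (a complexin of photoreceptor ribbons) at -3.89, Egflam (pikachurin, which holds bipolar tips at the ribbon) at -3.34 and Slc17a7 (the vesicular glutamate transporter of photoreceptors and bipolar cells) at -1.59. The member that rose was Cplx3, a complexin of retinal synapses, singled out after its values were seen, at 610, 575 and 590 CPM against 447, 461 and 415 CPM (0.42, SE 0.067, adjusted p = 2.6e-05). Its sign turned with the bipolar cell scaling (-0.12, adjusted p = 0.43).

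Of 20 genes of photoreceptor energy and lipid supply, 9 fell and 4 rose, where 26.9% and 27.4% of all genes did. Hk2, the hexokinase of photoreceptors, was at 592, 446 and 400 CPM in control and at 12.7, 9.25 and 10.9 CPM in Blue1000 (-5.45, SE 0.36, adjusted p = 4.6e-09). Ldha, a lactate dehydrogenase subunit, was at -1.42, and Elovl4 and Elovl2, which build very long chain fatty acids for disc membranes, were at -2.99 and -2.46. With the bipolar cell scaling 14 were lower and 0 higher, where 50.9% and 7.05% of all genes were.

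**Figure D2:**
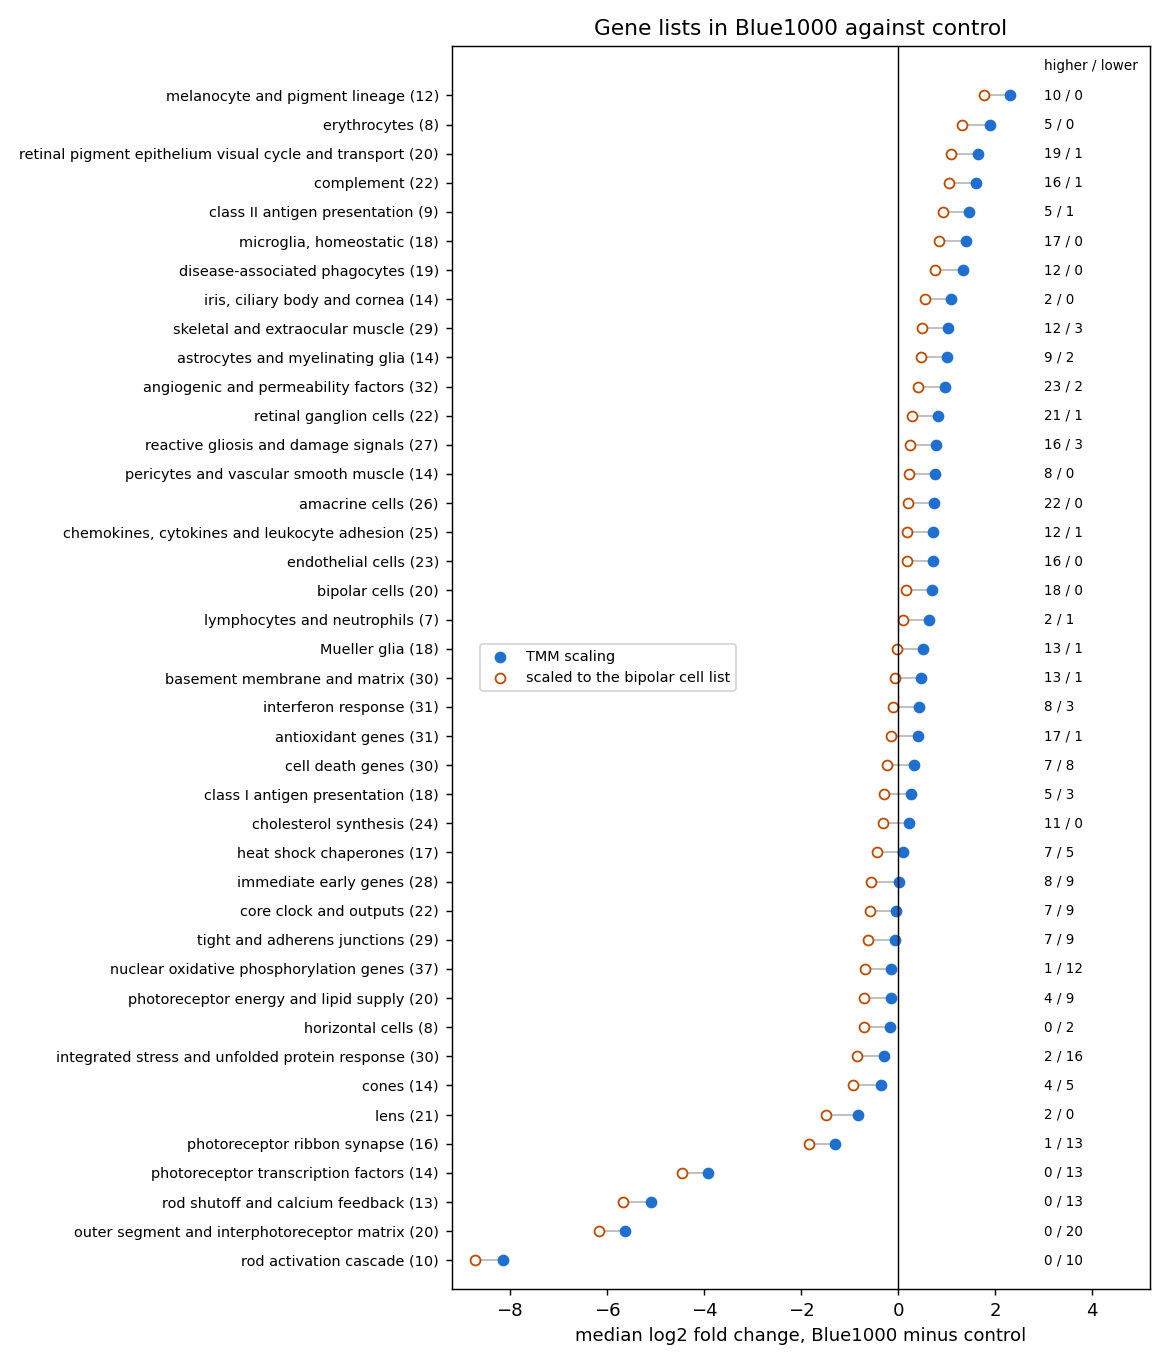
Median log2 fold change (Blue1000 minus control) of each gene list under TMM scaling (filled) and scaled to the bipolar cell list (open), with the number of tested genes in brackets and the numbers called higher and lower under TMM at the right. The 4 rod lists lie between -8.15 and -3.91, and the pigment list is highest at 2.31.

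Genes of inner retinal neurons took a larger share of the RNA in Blue1000. Of 20 bipolar cell genes 18 rose, as did 22 of 26 amacrine cell genes and 21 of 22 ganglion cell genes, where 27.4% of all genes were higher, with medians of 0.70, 0.74 and 0.83. Scaled to the bipolar cell list, 5, 7 and 12 of them were higher and 1 of each list lower, with medians of 0.16, 0.20 and 0.29. Of 8 horizontal cell genes 0 rose and 2 fell (0 and 5 under the bipolar cell scaling), with a median of -0.16 that turned to 0.03 without control replicate 3. The scaling to the bipolar cell list sets the summed bipolar counts level, so its value for that list is a description.

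Grik1, a glutamate receptor of OFF bipolar cells, was at 109, 116 and 108 CPM in control and at 212, 215 and 212 CPM in Blue1000 (0.94, SE 0.086, adjusted p = 3.9e-08). Grm6, the glutamate receptor of ON bipolar cells, was at 0.69 and Isl1, a transcription factor of ON bipolar, amacrine and ganglion cells, at 0.66. The bipolar cell scaling ended the calls of Grm6 and Isl1 (adjusted p = 0.14 and 0.26). Trpm1, the channel of ON bipolar cells, was at 0.71 (SE 0.23, adjusted p = 0.014). It lost its call without control replicate 3 (adjusted p = 0.06) and with the bipolar cell scaling (adjusted p = 0.33). Prkca, the kinase that marks rod bipolar cells, was at 644, 616 and 549 CPM in control and at 666, 554 and 613 CPM in Blue1000, and the groups overlapped (0.02, SE 0.13, adjusted p = 0.92). With the bipolar cell scaling it was lower (-0.52, adjusted p = 2.2e-05).

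Gad2, which makes GABA in amacrine cells, rose from 55.2, 56.2 and 47.4 CPM to 113, 105 and 107 CPM (1.03, SE 0.2, adjusted p = 0.00035). Slc32a1, the vesicular transporter of inhibitory transmitters, was at 0.88, Chat, the acetylcholine enzyme of starburst cells, at 0.90, and Pax6 and Calb2 at 0.64 and 0.75. The bipolar cell scaling ended the calls of Pax6 and Calb2 (adjusted p = 0.44 and 0.22). Pou4f1, a transcription factor of ganglion cells, rose from 33.7, 30.6 and 31.8 CPM to 73.3, 61.2 and 59.6 CPM (1.01, SE 0.12, adjusted p = 9.6e-07), and Rbpms, an RNA-binding marker of ganglion cells, was at 1.13. The ganglion cell gene that fell was Opn4, melanopsin, the pigment of intrinsically photosensitive ganglion cells. It was at 59.9, 57.2 and 45.2 CPM in control and at 10.6, 14.1 and 13.5 CPM in Blue1000, with no overlap (-2.09, SE 0.24, adjusted p = 7.4e-07; -2.62 with the bipolar cell scaling).

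Genes of Müller glia, which span the retina and buffer potassium and glutamate, were higher for 13 of 18 and lower for 1 with TMM, with a median of 0.51. With the bipolar cell scaling 3 were higher and 5 lower, where 7.05% and 50.9% of all genes were. The list median turned to -0.03, and that over all genes was -0.51. Kcnj10, their potassium channel, rose from 130, 132 and 138 CPM to 310, 320 and 311 CPM (1.23, SE 0.075, adjusted p = 1.9e-10), and Slc1a3, their glutamate transporter, was at 1.10. Glul, glutamine synthetase, overlapped between the groups, at 3367, 3412 and 3890 CPM in control and 3743, 4315 and 3879 CPM in Blue1000 (0.16, adjusted p = 0.18; -0.38, adjusted p = 0.011 with the bipolar cell scaling). Cyp26a1, which degrades retinoic acid, rose from 1.70, 2.25 and 4.09 CPM to 21.2, 16.3 and 16.6 CPM (2.74, SE 0.32, adjusted p = 1.2e-06).

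Of 27 reactive gliosis genes 16 rose and 3 fell, with 8 higher and 4 lower under the bipolar cell scaling. Gfap, the filament protein of reactive glia, rose from 108, 96.8 and 146 CPM to 868, 668 and 759 CPM (2.71, SE 0.28, adjusted p = 5.1e-07). The protease inhibitor A2m was at 1.65, the copper carrier Cp at 1.42, Osmr (the oncostatin M receptor) at 2.26 and Cebpd at 1.78. Lcn2, a secreted lipocalin of reactive glia, rose from 14.3, 15.1 and 20.4 CPM to 71.6, 120 and 86.5 CPM (2.48, SE 0.47, adjusted p = 0.00041), with replicate 2 highest. Serpina3n stood at 50.0, 235 and 133 CPM in Blue1000 against 20.2, 21.6 and 27.4 CPM (2.59, adjusted p = 0.04), and its call was lost without any single control library, without Blue1000 replicate 2 (adjusted p = 0.14) or without Blue1000 replicate 3 (adjusted p = 0.064). Vim, a glial filament that lens cells also make, was high in control replicate 3, at 560 CPM beside 221 and 211 CPM, and was not called (0.46, adjusted p = 0.29); without that library, the lens-rich one, adjusted p = 0.0071.

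The damage signals went in both directions. Edn2, endothelin 2, a signal of stressed photoreceptors in mouse, fell from 10.45, 9.86 and 12.6 CPM to 0.702, 0.150 and 0.0921 CPM (-5.11, SE 0.83, adjusted p = 6.0e-05). Fgf2, a growth factor that protects photoreceptors, fell from 17.5, 15.4 and 16.4 CPM to 11.04, 5.31 and 5.40 CPM (-1.18, SE 0.25, adjusted p = 0.00056), and this call was lost without Blue1000 replicates 2 and 3 (adjusted p = 0.13). Lif, the cytokine upstream of Edn2 in mouse retina, rose from 2.18, 2.14 and 2.16 CPM to 5.98, 3.96 and 3.56 CPM (1.06, SE 0.3, adjusted p = 0.0054), a call that the bipolar cell scaling ended (adjusted p = 0.16). Stat3, which acts below Lif, was not called (adjusted p = 0.97). With the bipolar cell scaling Stat3 was lower (-0.55, adjusted p = 2.5e-04).

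Of 18 microglial genes 17 rose and 0 fell, with a median of 1.40, and 10 were higher under the bipolar cell scaling. Their share of counts was 0.0103%, 0.00970% and 0.0129% in control and 0.0262%, 0.0249% and 0.0254% in Blue1000. Csf1r, the receptor that microglia need to survive, rose from 22.3, 25.3 and 26.8 CPM to 70.1, 62.8 and 60.1 CPM (1.37, SE 0.23, adjusted p = 9.3e-05). Cx3cr1 was at 1.49, Tmem119 at 1.60 and Ptprc at 1.99. Genes of phagocytes in damaged tissue were higher for 12 of 19 and lower for 0, with 5 higher under the bipolar cell scaling and the same median of 1.33 without Blue1000 replicates 2 and 3. Lgals3, a galectin of such phagocytes, rose from 1.88, 2.29 and 5.74 CPM to 33.9, 27.4 and 29.2 CPM (3.18, SE 0.49, adjusted p = 5.6e-05), and Spp1 and Gpnmb were at 2.09 and 2.87. Mrc1, a marker of perivascular macrophages, was under 1 CPM in all 6 libraries and was not called (adjusted p = 0.74).

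Of 22 complement genes 16 rose and 1 fell, with 11 higher and 2 lower under the bipolar cell scaling. C3, the central component, rose from 43.3, 27.1 and 41.6 CPM to 199, 162 and 178 CPM (2.26, SE 0.48, adjusted p = 0.00095). C1qa, which opens the classical pathway, rose from 10.1, 6.07 and 10.6 CPM to 32.1, 32.2 and 31.9 CPM (1.84, SE 0.39, adjusted p = 0.00082). C4b was at 2.50, and of the inhibitors Serping1 was at 1.77 and Clu at 1.16. Cfb, of the alternative pathway, was not called (0.71, adjusted p = 0.12).

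Antigen presentation genes split. Ciita, the master regulator of class II genes, fell from 22.5, 25 and 21.3 CPM to 0.0305, 0.240 and 0.184 CPM (-7.20, SE 0.8, adjusted p = 8.6e-07), while 5 of the other 8 class II genes tested were higher. RT1-Bb, a class II beta chain, was at 0.0369, 0.0375 and 0.203 CPM in control and at 2.04, 3.36 and 3.01 CPM in Blue1000 (4.83, adjusted p = 0.0054), and lost its call with voom quality weights (adjusted p = 0.19). Cd74, the invariant chain, was at 8.16, 7.31 and 7.36 CPM against 24.8, 19.96 and 18.5 CPM, without overlap and without a call (1.47, SE 0.65, adjusted p = 0.069). It was called by 5 alternatives, among them DESeq2 (adjusted p = 0.032) and a fit of only the compared groups (adjusted p = 4.0e-05). Under the bipolar cell scaling 1 class II gene was higher. Of 18 class I genes 5 were higher, near the share over all genes (27.4%), and 3 lower, where 26.9% of all genes were. Under the bipolar cell scaling 2 were higher and 3 lower, where 7.05% and 50.9% of all genes were. RT1-CE16 rose from 0.554, 0.750 and 4.39 CPM to 71.6, 89.4 and 80.7 CPM (5.37, adjusted p = 0.0071; 0.36 with voom quality weights) and RT1-A2 fell from 52.1, 58.5 and 65.5 CPM to 32.5, 25.4 and 28.4 CPM (-1.03, adjusted p = 0.00035). RT1 genes are near-identical copies whose reads could be split between them, so these values are uncertain.

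Of 31 interferon response genes 8 rose, near the share over all genes (27.4%), and 3 fell, where 26.9% of all genes fell. Under the bipolar cell scaling 1 was higher and 3 lower, where 7.05% and 50.9% of all genes were. Irf1, a factor that drives such genes, fell (-0.83, adjusted p = 0.0088; 0.11 without Blue1000 replicates 2 and 3). Of 25 chemokine, cytokine and adhesion genes, 12 were higher and 1 lower, where 27.4% of all genes were higher, and under the bipolar cell scaling 2 were higher and 2 lower. Icam1, an adhesion molecule of vessels and glia, rose from 7.13, 6.07 and 6.89 CPM to 12.3, 14.3 and 12.7 CPM (0.96, SE 0.22, adjusted p = 0.0012), a call that the bipolar cell scaling ended (adjusted p = 0.16). Il1b and Tnf were under 1 CPM in all 6 libraries and not called (adjusted p = 0.76 and 0.99), and Ccl2 was at 0.0338 to 0.375 CPM in control and 0.570 to 0.860 CPM in Blue1000 (adjusted p = 0.06). Nfkbia, the inhibitor that NF-kappaB induces, was the member that fell, from 60.8, 64.6 and 67.4 CPM to 24.5, 28.3 and 29.5 CPM (-1.23, SE 0.11, adjusted p = 1.6e-08).

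**Figure D3:**
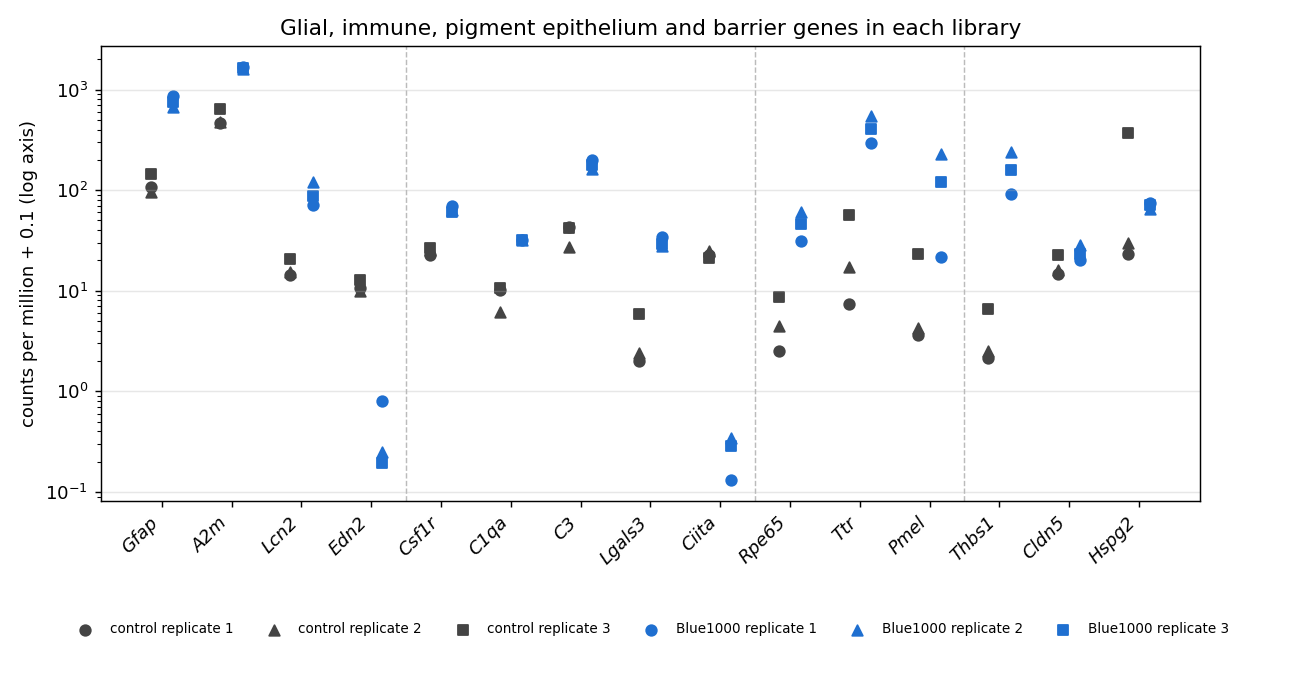
Levels in CPM plus 0.1 (log axis) of glial, immune, pigment epithelium and vessel or matrix genes, parted by dashed lines, in each control and Blue1000 library. Gfap lies between 668 and 868 CPM in Blue1000 and between 96.8 and 146 CPM in control, and for Hspg2 control replicate 3 stands alone at 366 CPM.

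Genes of the retinal pigment epithelium, which recycles retinoids and closes the outer barrier, were higher for 19 of 20 and lower for 1, with a median of 1.64, and for 14 of 20 under the bipolar cell scaling. Their share of counts was 0.0668%, 0.0737% and 0.0919% in control and 0.190%, 0.262% and 0.221% in Blue1000. Rpe65, the isomerase of the visual cycle, rose from 2.40, 4.31 and 8.51 CPM to 31.0, 60.3 and 46.2 CPM (3.17, SE 0.61, adjusted p = 0.00043). Ttr, the retinol and thyroid hormone carrier, rose from 7.24, 17.1 and 55.9 CPM to 291, 548 and 408 CPM (3.95, SE 0.8, adjusted p = 0.00071). Lrat, Rdh5 and Rgr, further visual cycle genes, were at 3.92, 4.14 and 3.46, and the retinol receptor Stra6 at 2.65. For Rpe65 and Ttr, replicate 3 was the highest control library and replicate 2 the highest Blue1000 library. The gene that fell was Gas6, a ligand for the phagocytic receptor Mertk (-0.85, adjusted p = 1.8e-05), named after its values were seen, as the only fall.

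Of 12 pigment lineage genes 10 rose, with a median of 2.31, and 6 under the bipolar cell scaling. When Blue1000 replicates 2 and 3 were left out, 0 were called higher and the median was 0.86. The list took 0.0192%, 0.0864% and 0.0487% of counts in Blue1000 replicates 1 to 3, against 0.00489%, 0.00492% and 0.0141% in control. Its order in Blue1000 was replicate 2, replicate 3, replicate 1 for 10 of 12 genes, and replicate 2 was above all 18 libraries of other groups for 11 of 12. Pmel, a melanosome matrix protein, was at 3.51, 4.16 and 23.2 CPM in control and at 21.4, 226 and 120 CPM in Blue1000, overlapping between control replicate 3 and Blue1000 replicate 1 (3.57, adjusted p = 0.0028; 0.41 without Blue1000 replicates 2 and 3). Tyrp1 was at 7.76, 8.55 and 72.8 CPM in control and 58.5, 269 and 140 CPM in Blue1000 (2.38, adjusted p = 0.027), and was not called without Blue1000 replicate 2 (adjusted p = 0.12), control replicate 1 (0.091) or control replicate 2 (0.092). The part of these pigment genes in the pigment epithelium result was not tested. Without Blue1000 replicates 2 and 3, 15 of the 20 pigment epithelium genes were called higher, with a median of 1.53.

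Of 23 endothelial genes 16 rose and 0 fell, with a median of 0.72. The number higher was 5 under the bipolar cell scaling. It was 7, with a median of 0.56, without Blue1000 replicates 2 and 3. Tie1, an endothelial receptor, rose from 5.24, 5.14 and 8.17 CPM to 13.8, 17.1 and 16.3 CPM (1.34, SE 0.22, adjusted p = 3.9e-05). Vwf was at 1.12 and Cdh5, the endothelial cadherin, at 1.21. Kdr and Flt1, receptors for vascular endothelial growth factor, were both at 0.66, and Plvap, which is low in barrier endothelium, at 0.79 (adjusted p = 0.0014). The bipolar cell scaling ended the calls of Kdr, Flt1 and Plvap (adjusted p = 0.36, 0.36 and 0.35).

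Of 29 junction genes 7 rose and 9 fell, near the shares over all genes (27.4% and 26.9%). Under the bipolar cell scaling 2 were higher and 13 lower, where 7.05% and 50.9% of all genes were. Their median of -0.07 turned with several settings, to 0.40 without control replicate 3. Cldn5, the main claudin of barrier endothelium, was at 14.6, 15.9 and 22.6 CPM in control and at 20.2, 28.7 and 22.96 CPM in Blue1000, with overlap (0.44, SE 0.19, adjusted p = 0.065). Without control replicate 3 its adjusted p was 0.011, and without Blue1000 replicate 1 it was 0.041. Ocln, occludin, was not called (0.25, adjusted p = 0.63). Tjp1, the scaffold that anchors claudins, was at 269, 281 and 253 CPM in control and 231, 218 and 230 CPM in Blue1000 (-0.24, adjusted p = 0.046). Its size rested on the scaling and ran from -0.78 to -0.01 over all settings. It was not called with summed counts (edgeR) or with log2 of FPKM plus 1 or 0.1 (limma), with adjusted p = 0.94 in each. Its call was also lost without any 1 of Blue1000 replicates 1, 2 and 3 and control replicates 1 and 2 (adjusted p from 0.073 to 0.15). Cldn1, a claudin of epithelia, was higher (1.53, adjusted p = 0.047), a call lost without the same 5 libraries each in turn (adjusted p from 0.051 to 0.16). Jam2, a junctional adhesion molecule, fell from 164, 162 and 161 CPM to 99.0, 89.0 and 93.7 CPM (-0.79, SE 0.092, adjusted p = 7.1e-07).

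Of 14 pericyte and smooth muscle genes 8 rose and 0 fell, with 3 higher and 2 lower under the bipolar cell scaling. Leaving out Blue1000 replicates 2 and 3, 1 was called higher and the median went from 0.77 to 0.20. Acta2, smooth muscle actin, was at 9.76, 44.3 and 23.6 CPM in Blue1000 and 7.05, 6.18 and 10.54 CPM in control, overlapping at Blue1000 replicate 1 (1.71, adjusted p = 0.00093; 0.51 without Blue1000 replicates 2 and 3). Myh11, smooth muscle myosin, was at 15.7, 55.6 and 38.9 CPM against 19.1, 23.9 and 18.1 CPM (0.85, adjusted p = 0.018). It was not called without Blue1000 replicate 2 (adjusted p = 0.18), control replicate 1 (0.061) or control replicate 3 (0.067), and stood at -0.39 without Blue1000 replicates 2 and 3. Pdgfrb, the defining receptor of pericytes, was at 23.9, 20.9 and 42.7 CPM in control and at 26.7, 30.4 and 30.4 CPM in Blue1000, overlapping throughout (adjusted p = 1; -0.56, adjusted p = 0.043, with the bipolar cell scaling).

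Of 32 angiogenic and permeability genes, 23 were higher and 2 lower, with 9 and 4 under the bipolar cell scaling. Thbs1, thrombospondin, an inhibitor of vessel growth, rose from 2.07, 2.40 and 6.49 CPM to 90.4, 240 and 159 CPM (5.47, SE 0.75, adjusted p = 2.1e-05). Adamts1, a protease that cuts matrix proteoglycans, rose from 58.3, 65.8 and 70.7 CPM to 204, 204 and 199 CPM (1.64, SE 0.13, adjusted p = 8.9e-09). Vegfa itself overlapped between the groups, at 312, 326 and 278 CPM in control and 306, 389 and 341 CPM in Blue1000 (0.18, adjusted p = 0.1; 0.029 without Blue1000 replicate 1). The hypoxia factor Epas1 fell from 471, 532 and 501 CPM to 232, 247 and 237 CPM (-1.07, SE 0.086, adjusted p = 7.2e-09), and Hif1a was at -0.31 (adjusted p = 0.0011), a call that scaling by summed counts ended (adjusted p = 0.34).

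Of 30 matrix genes 13 rose and 1 fell, where 27.4% and 26.9% of all genes did. The counts were 6 and 1 under the bipolar cell scaling and 18 and 1 without control replicate 3. The basement membrane genes Col4a1, Hspg2 and Nid1 were high in control replicate 3, the lens-rich library. Hspg2, perlecan, was at 23.3, 29.6 and 366 CPM in control and at 74.9, 64.5 and 71.3 CPM in Blue1000 (-0.99, adjusted p = 0.39). Nid1, nidogen, was at 11.7, 9.78 and 153 CPM against 55.5, 39.5 and 47.2 CPM (-0.30, adjusted p = 0.81), and at 2.12 (adjusted p = 0.037) without that library. The part of lens tissue in these values was not tested. Fn1, fibronectin, rose (1.53, SE 0.23, adjusted p = 3.0e-05). Lamb3, a laminin chain, fell from 51.6, 33.0 and 11.4 CPM to 0.0610, 0.420 and 0.153 CPM (-7.21, SE 0.83, adjusted p = 1.7e-06). Dcn, decorin, chosen after its values were seen, was at 0.397, 41.4 and 23.9 CPM in Blue1000 and 0, 0.0375 and 0.676 CPM in control, so only replicates 2 and 3 were high (6.45, adjusted p = 0.0024; 0.78 without them).

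Of 22 clock genes 7 rose and 9 fell, where 27.4% of all genes rose and 26.9% fell, and under the bipolar cell scaling 1 was higher and 13 lower. Arntl (Bmal1), the core activator, fell from 230, 237 and 201 CPM to 55.9, 54.6 and 53.7 CPM (-2.02, SE 0.12, adjusted p = 8.5e-11). Its partners parted, with Npas2 at 0.90 and Clock not called (-0.11, adjusted p = 0.51; -0.65, adjusted p = 1.0e-05, with the bipolar cell scaling). Per1, a repressor, was at -1.19 and Drd4, a rhythmic dopamine receptor of photoreceptors, at -3.21. The labels give no time of day for the collection of tissue, so the part of time of day was not tested.

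Of 28 immediate early genes 8 rose and 9 fell, near the shares over all genes (27.4% and 26.9%), and under the bipolar cell scaling 3 were higher and 10 lower. Nr4a1 fell from 37.6, 30.3 and 23.5 CPM to 12.6, 7.92 and 11.5 CPM (-1.51, SE 0.22, adjusted p = 1.1e-05), and Atf3, a stress-induced factor, from 16.7, 23.9 and 14.96 CPM to 2.38, 2.43 and 3.29 CPM (-2.78, SE 0.39, adjusted p = 8.3e-06). Myc, chosen after its values were seen, rose (2.14, adjusted p = 2.4e-05).

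Genes of the integrated stress and unfolded protein responses were lower for 16 of 30 and higher for 2, where 26.9% of all genes were lower, and the median was -0.30; under the bipolar cell scaling 26 were lower and 0 higher. Atf4, the central factor, fell from 529, 540 and 520 CPM to 212, 208 and 207 CPM (-1.34, SE 0.12, adjusted p = 2.1e-08). Its targets Trib3 and Ddit4 were at -2.44 and -0.97. Hspa5, the chaperone of the endoplasmic reticulum, lay at 342, 349 and 351 CPM in control and 325, 346 and 340 CPM in Blue1000, with overlap (-0.04, adjusted p = 0.71; -0.58, adjusted p = 0.0032, with the bipolar cell scaling). Of 17 heat shock genes 7 were higher and 5 lower, where 27.4% and 26.9% of all genes were. Under the bipolar cell scaling 2 were higher and 8 lower, where 7.05% and 50.9% of all genes were. Hspa1b, the inducible chaperone, fell from 114, 94.4 and 136 CPM to 4.18, 4.47 and 5.74 CPM (-4.58, SE 0.36, adjusted p = 3.1e-08), and Hspb1, a small heat shock protein, rose from 3.77, 3.34 and 6.32 CPM to 15.3, 26.1 and 17.6 CPM (2.13, SE 0.29, adjusted p = 6.7e-06).

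Of 31 antioxidant genes 17 rose and 1 fell with TMM, where 27.4% and 26.9% of all genes did. With the bipolar cell scaling 2 rose and 8 fell, where 7.05% and 50.9% of all genes did. The list median turned from 0.41 to -0.14, and that over all genes from 0.04 to -0.51. Hmox1, heme oxygenase, rose from 1.55, 1.42 and 1.28 CPM to 6.83, 4.62 and 6.78 CPM (2.10, SE 0.29, adjusted p = 6.7e-06), and the metallothioneins Mt1 and Mt2A were at 1.19 and 1.71. Nqo1 and Nfe2l2, a target and the factor of the antioxidant response, were not called (adjusted p = 0.49 and 0.053). Of 30 cell death genes 7 rose and 8 fell, near the shares over all genes (27.4% and 26.9%). Under the bipolar cell scaling 2 were higher and 12 lower, where 7.05% and 50.9% of all genes were. The inflammatory caspase Casp4 rose from 0.628, 0.262 and 0.811 CPM to 2.11, 2.07 and 2.73 CPM (2.01, SE 0.4, adjusted p = 0.00029). Nuclear oxidative phosphorylation genes were lower for 12 of 37, where 26.9% of all genes were lower, and higher for 1. Under the bipolar cell scaling 35 were lower. Their median turned from -0.15 to 0.08 with summed counts. Atp5f1b, a subunit of ATP synthase, was at -0.51 (adjusted p = 6.2e-06). Of 24 cholesterol synthesis genes 11 rose and 0 fell, where 27.4% and 26.9% of all genes did. Under the bipolar cell scaling 0 were higher and 12 lower, near the share of all genes that were lower (50.9%).

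The largest falls among genes averaging 1 CPM or more without overlap included 3 genes at 0 in every Blue1000 library, whose folds are known only as bounds and cannot be ranked against the others. Mgat4d, of a family of glycosyltransferases, had 11.5, 10.04 and 10.47 CPM in control and was at least 117-fold lower, against a floor of 3 counts per library. Btg4, which clears maternal mRNA in mouse oocytes, was at least 68.9-fold lower, and Glp1r, the receptor for glucagon-like peptide, at least 25.6-fold lower, the latter not called by DESeq2 (adjusted p = 0.063). Clul1, a clusterin-like gene of the retina, fell from 248, 195 and 176 CPM to 0.122, 0.0300 and 0.0921 CPM (-11.25, SE 0.86, adjusted p = 4.7e-08). Acbd7, an acyl-CoA-binding gene, went from 5.95, 8.70 and 12.2 CPM to 0, 0 and 0.0307 CPM, below the floor of 3 counts. Its estimate of -9.33 is therefore no exact fold, and ran from -11.20 to -2.83 over all settings. Among the other largest falls were Gnat1, Pde6b, Nrl, Nr2e3, Cnga1 and Cngb1.

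The 12 largest rises included Thbs1, RT1-CE16, RT1-Bb, Krt8 and Rdh5. Ca3, a carbonic anhydrase, rose evenly from 0.960, 0.974 and 0.811 CPM to 22.1, 19.8 and 21.9 CPM (4.53, SE 0.43, adjusted p = 1.5e-07). Sbspon, a secreted protein with a thrombospondin domain, rose from 0.185, 0.0750 and 0.405 CPM to 5.61, 12.9 and 7.24 CPM (5.23, SE 0.56, adjusted p = 3.0e-07). Kcnj15, a potassium channel, was at 4.85, the carboxypeptidase Cpxm2 and the organic anion transporter Slco1a5 both at 4.59, and the amino acid transporter Slc7a10 at 4.19. For Sbspon, Kcnj15, Cpxm2, Slco1a5 and Slc7a10, Blue1000 replicate 2 was highest.

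The largest rise was that of Asb15, an ankyrin repeat gene of skeletal muscle, at 25.02, 0.150 and 11.6 CPM in Blue1000 and 0.0369, 0 and 0.0338 CPM in control (8.79, SE 2.3, adjusted p = 0.005; 0.50 with voom quality weights). It was high in Blue1000 replicates 1 and 3, and also at 17.3 and 41.1 CPM in replicates 2 and 3 of halogen light at level 200. Of 29 muscle genes 12 rose and 3 fell, where 27.4% and 26.9% of all genes did. Under the bipolar cell scaling 7 were higher and 6 lower. The counts were 2 and 4 without Blue1000 replicates 2 and 3, and the median went from 1.02 to 0.01. The list took 0.0129%, 0.0163% and 0.0150% of counts in Blue1000, against 0.00999 to 0.0108% in control and 0.00890 to 0.0135% in the other groups. Its order in Blue1000 was replicate 2, replicate 3, replicate 1 for 16 of 29 genes, and replicate 2 was above all 18 libraries of other groups for 15 of 29. Myh4, a fast myosin, was at 0.0610, 8.19 and 3.04 CPM in Blue1000, against at most 0.513 CPM in those 18 libraries (5.41 against control, adjusted p = 0.0012), and at -0.47 without replicates 2 and 3. Tnni2, fast troponin, was at 0.0610, 2.34 and 0.952 CPM. With voom quality weights neither Myh4 nor Tnni2 was called (adjusted p = 0.2 and 0.057). Cox6a2 and Trdn were at 0 in every control library. Myh7, a slow myosin, went the other way, from 18.9, 13.8 and 12.6 CPM to 1.53, 1.14 and 2.06 CPM (-3.26, SE 0.33, adjusted p = 1.6e-07), and it kept its call without replicates 2 and 3.

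Of 21 lens genes 2 rose and 0 fell, where 27.4% and 26.9% of all genes did. Under the bipolar cell scaling 0 were called. Cryaa, the alpha crystallin of lens fibres, was at 1459, 1.56 and 740 CPM in Blue1000 and 37.9, 14.2 and 3333 CPM in control, so the spread lay within both groups (-0.62, SE 2.6, adjusted p = 0.86). Mip, the lens aquaporin, was at 16.1, 0.150 and 10.3 CPM in Blue1000, and at 1.26, 0 and 23.8 CPM in control. The order replicate 1, replicate 3, replicate 2 in Blue1000 held for 15 of 21 lens genes. The median of the list was -0.82, and 3.36 without control replicate 3. Of iris, ciliary body and cornea genes 2 of 14 were higher, where 27.4% of all genes were. Under the bipolar cell scaling 2 were higher and 1 lower, where 7.05% and 50.9% of all genes were. Of these Myoc, myocilin of the outflow tissue, rose from 0.628, 1.80 and 10.3 CPM to 53.0, 48.0 and 51.8 CPM (3.57, SE 0.9, adjusted p = 0.0037).

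**Figure D4:**
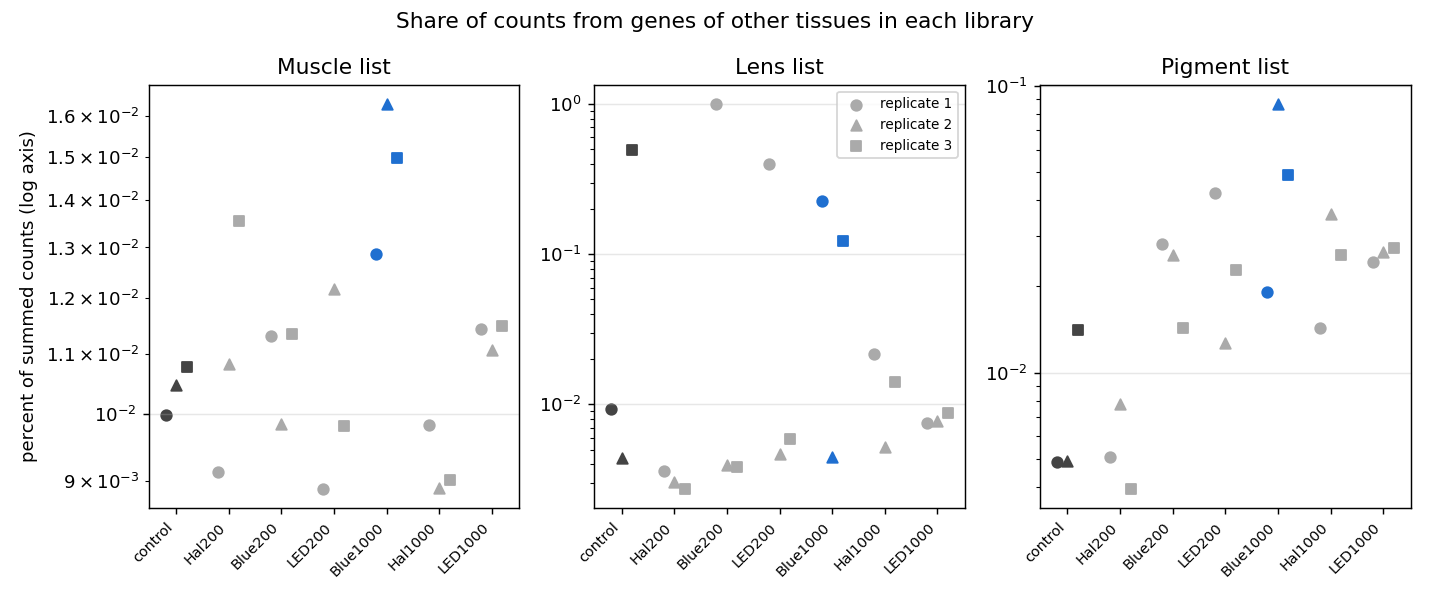
Percent of summed counts (log axes) taken by the muscle, lens and pigment gene lists in each of the 21 libraries, with control in black and Blue1000 in blue. Blue1000 replicate 2 is the highest library for muscle (0.0163%) and pigment (0.0864%), while lens is high in control replicate 3 (0.493%) and in Blue1000 replicates 1 (0.228%) and 3 (0.123%).

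Of 8 red blood cell genes 5 rose, with 2 under the bipolar cell scaling, and the list took 0.0230%, 0.0110% and 0.0184% of counts in Blue1000 against 0.00236%, 0.00253% and 0.00594% in control. Hbb rose from 2.70, 2.74 and 9.76 CPM to 37.0, 24.4 and 37.9 CPM (2.70, SE 0.76, adjusted p = 0.0076), though globin genes share reads between copies. Of 7 tested lymphocyte and neutrophil genes 2 were higher and 1 lower under both scalings. With TMM 27.4% of all genes were higher, near the share in this list, and 26.9% were lower. With the bipolar cell scaling 7.05% and 50.9% of all genes were. Cd3e, which defines T cells, was under 1 CPM in all 6 libraries and not called (adjusted p = 0.79). Cd4, which microglia and macrophages also express in rat, rose from 10.2, 8.995 and 10.4 CPM to 26.1, 31.7 and 32.7 CPM (1.61, SE 0.23, adjusted p = 1.1e-05). Of 14 astrocyte and myelin genes 9 rose and 2 fell, with 4 and 2 under the bipolar cell scaling: Pax2, of retinal astrocytes, was at 1.56, S100b at 1.57 and Sox10, of myelinating glia and melanocytes, at 3.75.

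Few genes separated Blue1000 from 3 other light groups in the edgeR fit, and the number depended on the test. Against Blue200, 2 genes were called (0.0125%), 861 at an unadjusted p under 0.05 (5.38%), and 0.00625% were called with a difference over 2-fold. Against Hal1000, 5 were called (0.0312%), 1079 unadjusted (6.74%), and 0.0187% over 2-fold. Against LED1000, 42 were called (0.262%), 13 higher (0.0812%) and 29 lower (0.181%), and 0.05% were called over 2-fold. There 3530 genes had an unadjusted p under 0.05 (22.1%), a larger share than against Blue200 or Hal1000. With voom quality weights the counts were 64, 1078 and 4889, and with DESeq2 17, 30 and 760. A low count therefore does not show that the groups were alike. No control library enters these contrasts. Of the 13 calls named below, none remained without the 3 libraries that sat between the other libraries of their group, which were LED1000 replicate 2 and replicate 3 of Blue1000 and of Hal1000. Without Blue1000 replicate 2 the calls of Dio2 and Vgf against Hal1000 and of Vgf against LED1000 remained, and without Blue1000 replicate 3 these and that of Cxcl14 against Hal1000.

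Dio2 and Vgf overlapped with control in Blue1000 and were higher in Blue200, Hal1000 and LED1000. Levels near those of Blue1000 were also seen in LED and halogen light at level 200. In LED light at that level Dio2 was at 17.3, 17.4 and 11.6 CPM and Vgf at 81.9, 79.98 and 79.6 CPM. In halogen light at level 200 Dio2 was at 18.6, 19.9 and 17.1 CPM and Vgf at 75.7, 86.3 and 70.3 CPM. Those groups were not tested against Blue1000. Dio2, the deiodinase that activates thyroid hormone, was at 15.9, 11.5 and 14.6 CPM in Blue1000 and at 13.1, 14.99 and 11.01 CPM in control. It was at 27.3, 27.7 and 43.1 CPM in Blue200, 41.2, 38.0 and 41.2 CPM in Hal1000 and 30.4, 30.8 and 31.1 CPM in LED1000. No library of these 3 groups overlapped with Blue1000. The log2 differences were -1.23, -1.52 and -1.14 (SE 0.18 each, adjusted p = 0.015, 0.00044 and 0.013), and 0.10 against control (adjusted p = 0.65). The call against Blue200 was also lost without Blue200 replicate 3, and that against LED1000 without LED1000 replicate 2 or 3.

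Vgf, a secreted neuropeptide precursor, was at 77.2, 74.8 and 74.8 CPM in Blue1000 and at 64.1, 77.8 and 69.9 CPM in control. Blue200 had 126, 104 and 106 CPM, Hal1000 121, 132 and 124 CPM and LED1000 124, 123 and 128 CPM, all above Blue1000. The log2 differences were -0.57, -0.74 and -0.73 (SE 0.084 each, adjusted p = 0.015, 0.00044 and 0.00085), and 0.10 against control (adjusted p = 0.34). Scaled to the bipolar cell list, the calls against Blue200 and Hal1000 were lost, and the first was also lost without Blue200 replicate 1 or 3.

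Against Hal1000, 3 further genes were lower. Cxcl14, a chemokine-like peptide, was at 94.2, 92.5 and 98.3 CPM in Blue1000, between control at 55.9, 55.9 and 52.5 CPM and Hal1000 at 121, 142 and 134 CPM (-0.48, SE 0.07, adjusted p = 0.0088; 0.80 against control), and its call was lost without Hal1000 replicate 2 or 3. Slc18a2, the vesicular monoamine transporter, was at 3.72, 3.69 and 3.93 CPM in Blue1000 and 8.88, 12.3 and 10.9 CPM in Hal1000 (-1.50, SE 0.25, adjusted p = 0.032). Vip, a peptide of amacrine cells, was at 12.2, 11.7 and 9.48 CPM against 27.7, 31.1 and 34.2 CPM (-1.48, SE 0.24, adjusted p = 0.032). The calls of Slc18a2 and Vip were each lost without any 1 of the 6 libraries compared, and those of Cxcl14, Slc18a2 and Vip when scaled to the bipolar cell list. All 3 genes were also lower than in LED1000, by -0.34, -1.09 and -1.13 (adjusted p = 0.048, 0.064 and 0.053, edgeR). Against Blue200 the differences were -0.41, -0.92 and -0.54, without a call. These contrasts are not among the calls counted above.

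Against LED1000, Cartpt, a neuropeptide precursor, was at 129, 97.0 and 110 CPM in Blue1000 and 165, 190 and 246 CPM in LED1000 (-0.84, SE 0.13, adjusted p = 0.011). Bdnf, a neurotrophin, was at 6.47, 4.68 and 4.82 CPM against 9.75, 10.4 and 12.02 CPM (-1.01, SE 0.16, adjusted p = 0.017). Ngfr, the low-affinity neurotrophin receptor, was higher, at 78.7, 76.6 and 78.5 CPM against 43.4, 43.0 and 44.2 CPM (0.84, SE 0.13, adjusted p = 0.013), and so was Limch1, an activator of non-muscle myosin (0.46, SE 0.078, adjusted p = 0.028). Each lost its call without LED1000 replicate 3, all but Cartpt without LED1000 replicate 2, and Limch1 without Blue1000 replicate 1. Scaled to the bipolar cell list, the calls of Ngfr and Limch1 were lost.

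**Figure D5:**
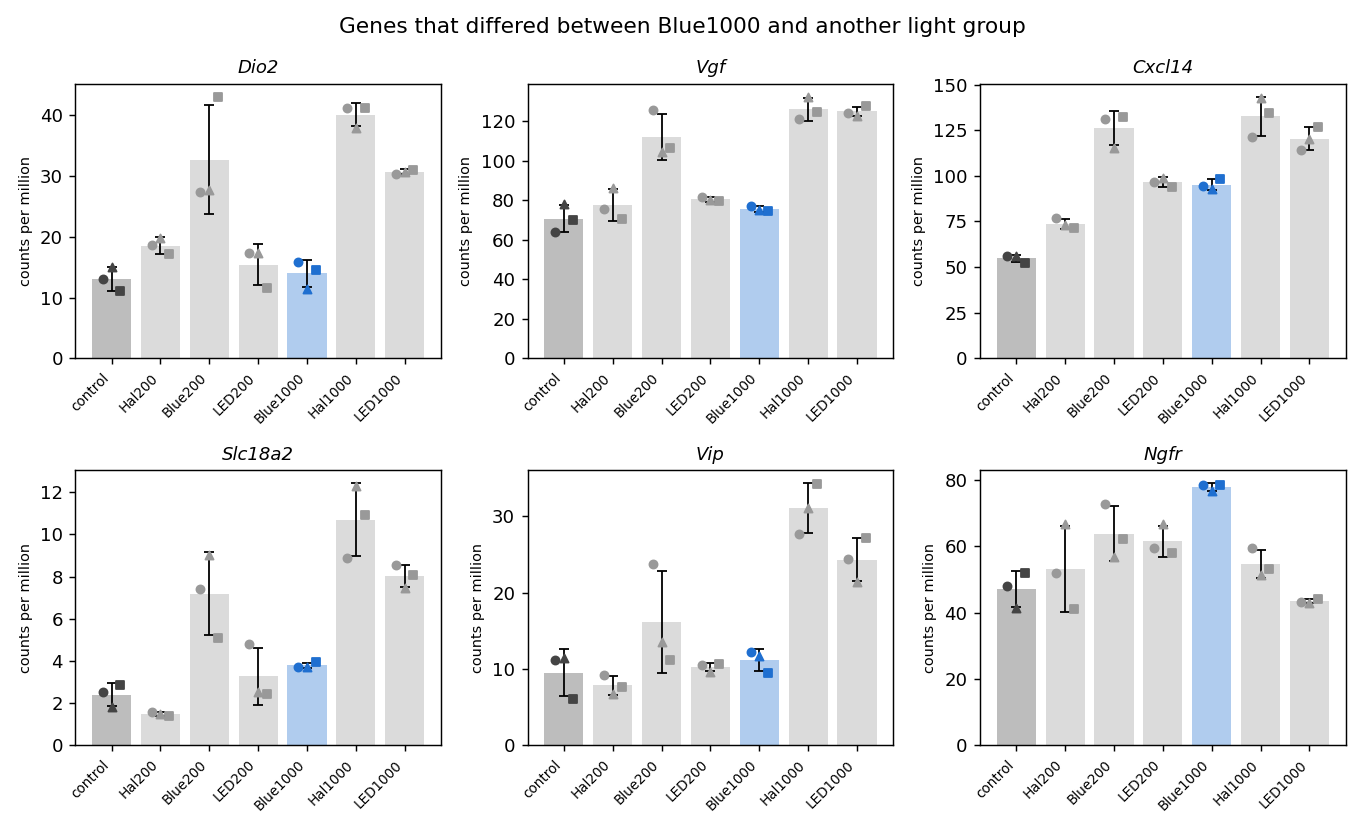
Levels in CPM of 6 genes in the 7 groups; bars are means, error bars the SD over 3 libraries, and points the libraries. Dio2 and Vgf in Blue1000 lie near control and below Blue200, Hal1000 and LED1000, and Ngfr is highest in Blue1000 at 76.6 to 78.7 CPM.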

How the data were processed

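Per the labels' protocols, bulk retinal RNA was made into libraries by a VAHTS Universal V6 kit. The authors deposited whole-number counts per gene and FPKM values for 21 libraries. For aligner, counter, strand and build, names were not given in the sources used here; R 3.2.0 is named in the submitters' processing notes. The deposited FPKM values followed from the deposited counts through a gene length for all 19099 genes, within 0.001 bases. The table held 0 rows without a gene and 0 unused sample columns. Genes were filtered with filterByExpr (minimum count 10, minimum total 15) and tested by edgeR 4.0.16 (quasi-likelihood F-test, TMM, 7 groups in the fit, no block) in R 4.3.3, with Benjamini-Hochberg adjustment at 0.05. SE is the absolute log2 fold change over the square root of F. The procedure was tested on simulated data, in which few genes were changed, as many up as down, and libraries were drawn independently. The contrast with control differs from that setting, so the simulation cannot vouch for the scaling or the error rate there. Alternatives used DESeq2 1.42.0, limma 3.58.1 (voom, or log2 of FPKM plus 1 or 0.1), other scalings and left-out libraries. Figures used Python 3.11.15 and matplotlib 3.10.9. A count of 0 was bounded by 3 counts, 0.09 to 0.1124 CPM, which covers counting error only.

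The 41 lists (900 symbols, 880 in the table, 842 tested) and the members were chosen with earlier results of these data known. Named genes were the 12 largest rises and falls among called genes averaging 1 CPM or more without overlap, anchor genes of each list with up to 4 called members of smallest adjusted p, the 6 called genes of smallest adjusted p in each contrast between light groups, and any muscle or lens gene. Gucy2f, Pde6d, Cplx3, Gas6, Dcn and Myc fall outside that rule or were singled out after their values were seen. Promoter windows came from RefSeq (GRCr8), matched by symbol. Results for some list members are not reported here.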

Additional observations from a re-analysis of the deposited data

Results flagged for a closer look

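The 13 contrasts below differed between light groups in a direct test (edgeR quasi-likelihood, Benjamini-Hochberg adjustment). Blue1000 was lower than Blue200 for Dio2 by a log2 difference of -1.23 and for Vgf by -0.57. It was lower than Hal1000 for Dio2 (-1.52), Vgf (-0.74), Cxcl14 (-0.48), Slc18a2 (-1.50) and Vip (-1.48). It was lower than LED1000 for Vgf (-0.73), Cartpt (-0.84), Dio2 (-1.14) and Bdnf (-1.01), and higher for Ngfr (0.84) and Limch1 (0.46). Under 17 other settings, Dio2 against Hal1000 and Vgf against LED1000 each kept their call in 16, and Slc18a2 against Hal1000 and Vgf against Blue200 in 8. None of the 13 was called without the 3 libraries that lay between their group mates, and none changed sign.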

How the results depend on the processing

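Against control (8686 genes called), 5720 were called without Blue1000 replicates 2 and 3, and 7594 to 8759 without 1 library at a time. Against Blue200 (2 called) the counts were 17 with DESeq2, 1 with the bipolar cell scaling, 0 with only the compared groups, 1 with log2(FPKM + 1), 1 with log2(FPKM + 0.1), 64 with voom, 0 to 9 without 1 library and 0 without the 3 in-between libraries. Against Hal1000 (5 called) they were 30, 1 and 792 with DESeq2, the bipolar scaling and only the compared groups, 1078 with voom, 2 to 8 without 1 library and 0 without the in-between libraries. Against LED1000 (42 called) they were 760, 1078 and 176 in the same order, 91 and 80 with the FPKM settings, 4889 with voom, 2 to 1364 without 1 library (1364 without LED1000 replicate 1) and 0 without the in-between libraries. The causes were not tested.

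Replicate numbers were not used to pair the samples in the main fit. Same-numbered Blue1000 and control libraries correlated at 0.0267, 0.0773 and 0.0958 in their deviations. Each Blue1000 library correlated best with the control library of its own number. The same-numbered values were -0.1525, -0.0567 and -0.1036 with Blue200. They were 0.0724, 0.108 and 0.0112 with Hal1000, and 0.0511, -0.0278 and -0.0198 with LED1000. The other groups thus did not share the pattern seen with control, and whether the samples were paired is not known. A replicate block gave 8416, 2, 4 and 20 calls against control, Blue200, Hal1000 and LED1000.

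The median over all genes was 0.04 with TMM, -0.51 with the bipolar scaling and 0.26 with summed counts. List medians changed sign as follows. With the bipolar scaling they were -0.03 for Müller glia, -0.29 for class I, -0.10 for interferon, -0.07 for matrix, -0.55 for immediate early, -0.43 for heat shock, -0.14 for antioxidant, -0.23 for cell death and -0.32 for cholesterol genes. With summed counts, log2(FPKM + 1) and log2(FPKM + 0.1) they were 0.08, 0.12 and 0.12 for energy, 0.07, 0.05 and 0.08 for horizontal cell, 0.16, 0.18 and 0.35 for junction, 0.19, 0.18 and 0.19 for clock and 0.08, 0.08 and 0.08 for oxidative phosphorylation genes, and with both FPKM settings 0.18 and 0.23 for lens genes. With voom they were 0.37 for junctions and 1.43 for lens, and with DESeq2 and its size factors -0.02 and -0.02 for immediate early genes. Without control replicate 3 they were 0.03 for horizontal cells, 0.40 for junctions and 3.36 for lens, and without Blue1000 replicate 3 as well 0.04, 0.40 and 3.30, with -0.26 for lymphocytes. Without Blue1000 replicates 2 and 3 they were 0.21 for cones, 0.04 for clock and -0.09 for iris genes, and without control replicate 3 as well 0.22 for cones, 0.18 for horizontal cells, 0.25 for junctions and 4.29 for lens.

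Of 219 named genes, 179 kept direction and side of the threshold with the bipolar scaling and 190 without Blue1000 replicates 2 and 3. Reversed with the bipolar scaling were Cplx3 (-0.12), Prkca (-0.52), Glul (-0.38), Pdgfrb (-0.56) and Vegfa (-0.35). Nid1 reversed with voom (1.61) and without control replicate 3 (2.12), and Myh11 (-0.39) and Myh4 (-0.47) without Blue1000 replicates 2 and 3 (-0.49 and -0.86 without control replicate 3 as well). Over single libraries left out, medians ran from -0.71 (cones), -0.18 (junctions) and -1.65 (lens), Nid1 from -0.79 to 2.12, and Myh11 and Myh4 up to 1.21 and 5.99; Nid1 was 2.33 without Blue1000 replicates 2 and 3 and control replicate 3. Genes near the floor of 3 counts are limited by depth.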
